A study of Mus musculus with 21 samples.

Results

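The transcriptome of Lgr5GFP low cells of the mouse stomach corpus was compared between tamoxifen-injected and control mice on 7 of the 21 arrays of the study. Cells of the corpus, the acid-secreting body of the stomach, had been sorted by flow cytometry into 3 populations (high, low and negative) by how brightly they carried a green fluorescent reporter under control of Lgr5. The other 4 groups lie outside this comparison and serve here to share the estimate of spread and to test differences between populations. The 4 arrays of tamoxifen low cells came from mice given 0.27 mg of tamoxifen per g of body weight, with cells isolated 24 h later, and the 3 arrays of control low cells came from mice labelled as controls, with Uninj in their titles. All groups carried the Lgr5GFP reporter, and the strain, age and sex of the mice are not given in the labels used here. The design text calls the arrays of a group technical replicates from individual sorts, so p-values measure the spread between these sorts, which may be technical. A group injected with vehicle alone is not among these arrays and each sort holds 1 treatment, so the drug, the injection and the sort cannot be told apart. All 22180 genes with a probe set of their own were tested out of 22180 in the whole series, each by its single brightest probe set. Values are log2 signal, so a difference of 1 is a doubling, and are given for tamoxifen sorts 1 to 4 and control sorts 1 to 3, in that order.

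Chief cells sit at the base of the corpus gland and secrete pepsinogen from large granules, which they fill through an extensive endoplasmic reticulum (ER). The transcription factor Mist1, encoded by Bhlha15, and the unfolded protein response factor Xbp1 maintain this secretory architecture. Lgr5 is a receptor for R-spondins that amplifies Wnt signalling and marks part of the chief cell pool. High-dose tamoxifen is known to kill parietal cells, the acid-secreting neighbours of chief cells, and to be followed by a loss of mature chief cell features and by metaplasia of the gland base.

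The label was checked against the reporter's gene and the chief cell markers. Lgr5 read 6.54, 7.01, 6.75 and 6.49 in the tamoxifen sorts and 7.49, 7.48 and 7.71 in the controls, a fall of the mean by 0.86 (SE 0.21, adjusted p = 0.011). Since this gene drives the fluorescence that the gate was set on, its difference describes the sorted cells and is no independent finding. Pgc, which encodes pepsinogen C, read 13.32, 13.25, 13.42 and 13.33 against 13.38, 13.42 and 13.27, with a difference of -0.03 (SE 0.12, adjusted p = 0.926). Its values lie next to 13.55, the highest in the deposited table, where a change can be hard to see. Cblif, which encodes gastric intrinsic factor, read 12.45, 12.15, 12.54 and 12.20 against 12.61, 12.71 and 12.48 (-0.27, SE 0.17, adjusted p = 0.391). Bhlha15, also on the chief cell list, was lower, at 4.75 to 5.59 in the tamoxifen sorts against 7.81 to 8.52. The mean of the chief cell list was 8.65 to 8.84 in the tamoxifen sorts and 9.43 to 9.64 in the controls, with no overlap.

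Several arrays carried features that did not follow treatment. Gast, the gene for gastrin, which is made in the antrum rather than the corpus, read 5.15, 5.48, 5.63 and 12.40 in the tamoxifen sorts and 5.07, 10.28 and 12.54 in the controls. Cela1, which encodes an elastase, was also highest in tamoxifen sort 4 (10.21) and control sorts 2 and 3 (9.18 and 10.79), with 7.17 to 7.64 in the others. Both were picked after their values were seen. Control sort 3 stood apart in its mitotic genes, with a mean of 6.34 over the G2 and mitosis list against 4.50 to 5.60 in the other 6 arrays. Pearson correlations over all genes ran from 0.974 to 0.982 within the tamoxifen sorts, from 0.971 to 0.981 within the controls and from 0.940 to 0.967 between them. The part of these features in the results was not tested, except where a value without one of these arrays is given.

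With tamoxifen 1186 genes rose (5.35% of all genes) and 660 fell (2.98%). These calls use limma across all 21 arrays, with a Benjamini-Hochberg adjusted p under 0.05, and 4733 genes had an unadjusted p under 0.05. All 4 tamoxifen arrays lay above all 3 control arrays for 2693 genes (12.1%) and below them for 2010 (9.06%). Among genes that rose the median size of the difference was 0.99, and 573 rose at least 2-fold, 76 at least 4-fold and 21 at least 8-fold. Among genes that fell it was 1.04, with 353, 82 and 23 past the same folds. The median difference over all genes was 0.01, or -0.01 after cyclic loess normalisation, against which the medians of gene lists below can be read. Counts of called genes in each list can be read against the 5.35% risen and 2.98% fallen over all genes. The split between directions depended on the scaling, since rises made up 64.2% of calls here but 50.7% under cyclic loess, where 962 genes rose and 937 fell. The 2 settings shared 1568 calls and none of these had opposite signs. Protein-coding genes made up most calls, with 1151 of 18983 risen and 617 fallen, against 13 and 25 of 1990 long non-coding RNAs. Above the background guide given below lay 12489 of these protein-coding genes and 577 of these long non-coding RNAs.

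The counts depended on single arrays. Leaving out 1 array gave 619 to 1124 rises and 371 to 591 falls. Without control 1 there were 619 rises and 371 falls, without control 2 there were 664 rises, and without tamoxifen 1 there were 742 rises. Called without each of the 7 arrays in turn were 437 of the genes that rose and 273 of those that fell. Of the 314 genes chosen for naming 293 were called, and 217 of these kept their call whichever low array was left out. A gene of the 314 described below as risen or fallen is among those 217, unless the text says otherwise. Its 4 tamoxifen and 3 control arrays then did not overlap, again unless stated. Genes outside the 314 were picked after their values were seen and are not covered, among them Trpm5, Ltc4s, Dnajc3, Tnfaip3 and Gbp3.

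**Figure D1:**
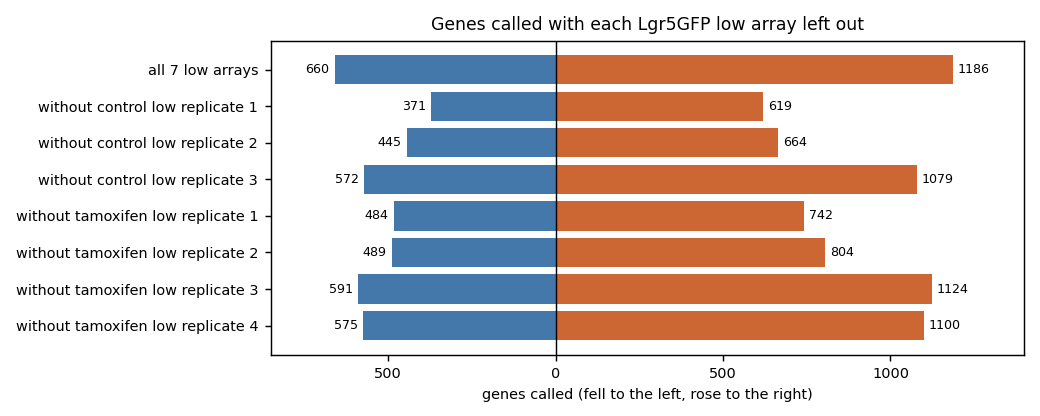
Genes called (x axis, number of genes) as fallen, to the left, or risen, to the right, with all 7 Lgr5GFP low arrays and with each array left out. Both counts are lowest without control 1, at 619 risen and 371 fallen, and stay highest with all 7 arrays.

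The gene with the largest rise was Sprr1a, a small proline-rich protein that is cross-linked into the cornified envelope of squamous cells. It read 11.58, 11.74, 11.76 and 11.26 in the tamoxifen sorts and 4.77, 6.21 and 6.56 in the controls, a difference of 5.74 (SE 0.35, adjusted p = 7e-09, 53.4-fold). The 4 tamoxifen arrays lay close together, while control 1 lay below the other controls. Hamp, which encodes the iron hormone hepcidin, read 8.32, 6.13, 7.17 and 7.03 against 2.31, 2.31 and 1.97 (difference 4.97, SE 0.39, adjusted p = 2.3e-07). The control values lie in the range of genes taken to be silent here. As a guide to that range, the 1105 olfactory receptor genes had a 95th percentile of 4.16, and for genes whose dimmer group lies at or under it a fold is given as a lower bound, here at least 8.01-fold. Anxa3, which encodes a calcium-dependent membrane-binding annexin, read 8.90, 9.15, 8.57 and 8.58 against 3.27, 4.18 and 4.34 (4.87, SE 0.32, adjusted p = 1.53e-08, at least 25-fold).

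The other large rises came from several classes of gene. Tnip3, a partner of the NF-kB inhibitor A20, read 9.15, 8.76, 6.96 and 7.97 against 3.64, 3.49 and 3.94 (4.52, SE 0.49, adjusted p = 8.89e-06, at least 16.6-fold). Cd14, a co-receptor for lipopolysaccharide, rose by 3.65 (SE 0.36), Cxcl16, a membrane-bound chemokine, by 3.47 (SE 0.29), and Akr1b8, an aldo-keto reductase, by 3.51 (SE 0.31, at least 4.12-fold). Slfn2, a Schlafen family gene, rose by 3.79 (SE 0.59, at least 8.60-fold) and Sectm1b by 3.59 (SE 0.63, at least 7.47-fold). Both differed widely among the tamoxifen sorts, with Slfn2 at 8.11, 7.93, 7.14 and 5.87 and Sectm1b at 7.01, 7.18, 8.05 and 6.0. Khdc1a was similarly uneven, at 6.95, 7.72, 5.38 and 8.12 against 3.02, 3.43 and 2.64 (4.01, SE 0.93, adjusted p = 0.00887, at least 7.39-fold). Slamf9, an immune receptor gene, rose by 3.32 (SE 0.33). Thbs1, a thrombospondin gene of the matrix, read 9.50, 8.84, 8.77 and 8.99 against 5.81, 5.68 and 6.35 (3.08, SE 0.36). Dmbt1, a mucosal scavenger receptor, rose by 3.19 (SE 0.49) from controls that already ranged from 5.96 to 8.84.

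**Figure D2:**
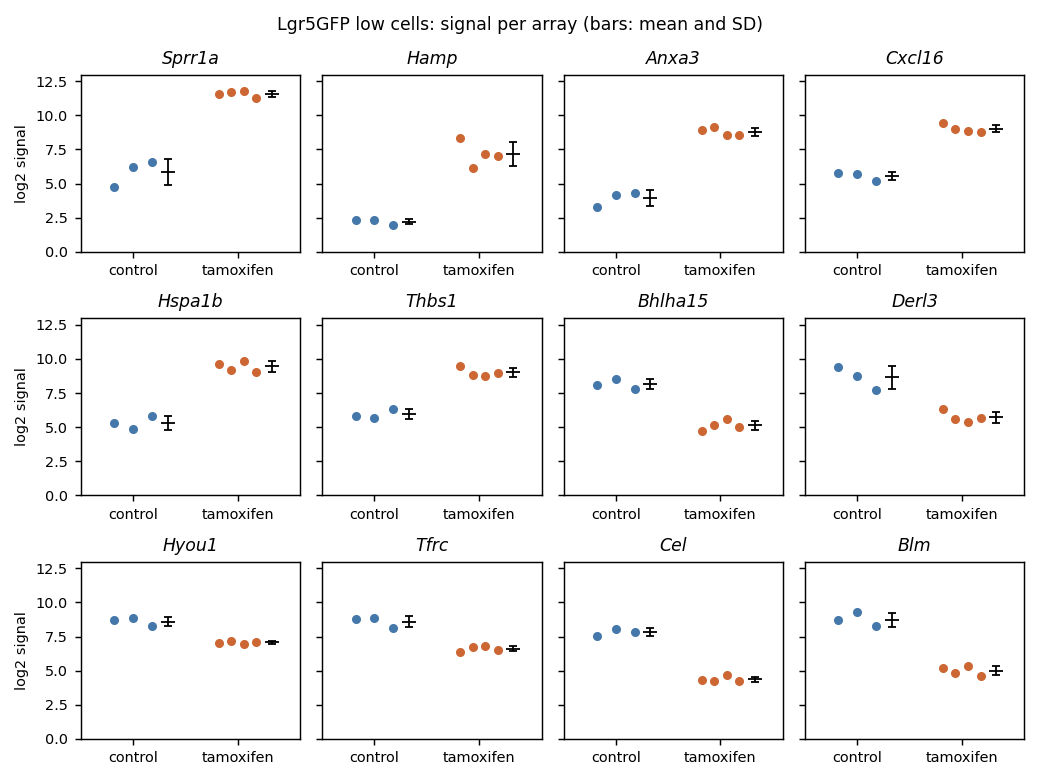
Log2 signal (y axis) of 12 genes in each Lgr5GFP low array, with control sorts in blue, tamoxifen sorts in orange and black bars for the mean and SD. For all 12 genes the tamoxifen and control points do not overlap: 6 genes from Sprr1a (11.26 to 11.76 against 4.77 to 6.56) to Thbs1 lie higher with tamoxifen and 6 from Bhlha15 to Blm (4.62 to 5.31 against 8.24 to 9.27) lie lower.

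The largest falls included 6 genes of the tuft cell list. Tuft cells are chemosensory epithelial cells that use a taste-like signalling cascade and release eicosanoids. Rgs13, a regulator of G protein signalling, read 4.78, 6.30, 7.05 and 4.15 in the tamoxifen sorts and 10.07, 9.35 and 9.26 in the controls, a fall of 3.99 (SE 0.66, adjusted p = 0.000637). Gnat3, which encodes the taste G protein gustducin, read 5.47, 4.93, 7.33 and 4.22 against 10.02, 8.69 and 9.32 (-3.86, SE 0.67, adjusted p = 0.000976). Dclk1, a kinase used as a tuft cell marker, read 5.28, 6.38, 7.06 and 5.31 against 10.37, 9.09 and 9.55 (-3.66, SE 0.53, adjusted p = 0.0002). All 3 genes were highest among the tamoxifen sorts in sort 3. Of the 20 measured genes of the tuft cell list 14 fell (70%) and none rose, with a median of -2.20, and 6 of the 20 largest falls belong to this list. The falls covered the cation channel Trpm5 (-2.82, SE 0.55), the lineage factor Spib (-3.07, SE 0.61), the actin regulator Avil (-2.71, SE 0.49), the adaptor Sh2d6 (-3.42, SE 0.59) and the leukotriene genes Alox5ap (-3.30, SE 0.49) and Ltc4s (-2.22, SE 0.44). Pou2f3, the factor on which tuft cells depend, read 4.48, 5.67, 5.57 and 4.81 against 8.70, 6.69 and 7.72 (-2.57, SE 0.58, adjusted p = 0.00783), and its call was lost without control 1.

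Further genes among the 20 largest falls are known from tuft cells without being on the list. Alox5, the leukotriene-forming 5-lipoxygenase, read 6.01, 6.72, 7.33 and 5.67 against 10.94, 8.88 and 9.84 (-3.45, SE 0.64). Hpgds, a prostaglandin D synthase, fell by 3.35 (SE 0.53, at least 7.01-fold), Sh2d7 by 3.18 (SE 0.53), Hepacam2 by 3.14 (SE 0.53) and Lrmp by 3.05 (SE 0.47). Vav1, Fyb, Strip2, Kctd12, Cdhr2 and Ms4a8a fell by 3.02 to 3.66. The log2 of the summed signal of the tuft list ran from 12.57 to 13.04 in the tamoxifen sorts and from 13.55 to 14.21 in the controls. Control 1 had the highest mean over this list, 8.65 against 7.55 and 7.98 in controls 2 and 3, and without it 9 of the 20 genes were called. In bulk RNA of sorted cells, fewer cells of a type and less RNA of a gene per cell cannot be told apart.

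Bhlha15, the Mist1 gene, read 4.75, 5.12, 5.59 and 5.03 in the tamoxifen sorts and 8.09, 8.52 and 7.81 in the controls, a fall of 3.02 (SE 0.36, adjusted p = 2.95e-05, 8.08-fold). The lists for the secretory pathway are given in the order in which a secreted protein passes through it. Xbp1 read 8.82, 8.88, 8.82 and 8.87 against 9.80, 10.06 and 9.41 (-0.91, SE 0.18, adjusted p = 0.00278). Creb3l1, which encodes another ER-bound transcription factor, fell by 1.31 (SE 0.23). The 10 measured chief cell markers included 2 that fell, Bhlha15 and the coat protein gene Copz2 (-1.47, SE 0.32), and none that rose, with a median of -0.29.

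At the first stage, where nascent proteins enter the ER and are glycosylated, 14 of 45 genes fell (31.1%) and 1 rose, with a median of -0.42. The 14 became 9 without control 1 or tamoxifen 1, 8 without control 3 or tamoxifen 2 and 7 without control 2. Tram1, part of the translocation channel, read 9.59, 9.66, 10.04 and 9.75 against 11.09, 11.13 and 10.81 (-1.25, SE 0.16, adjusted p = 7.25e-05). The oligosaccharyltransferase subunits Rpn1 (-1.005, SE 0.16) and Rpn2 (-0.92, SE 0.14), the signal peptidase subunit Spcs3 (-1.30, SE 0.22), the translocon-associated Ssr1 (-1.04, SE 0.23) and the glucosidase Ganab (-0.70, SE 0.15) fell as well. The 1 gene that rose was Sec11a, a signal peptidase subunit, at 8.35, 8.10, 8.18 and 8.35 against 7.54, 7.59 and 7.88 (0.57). Its call was lost without control 1, control 2, tamoxifen 1 or tamoxifen 4 and under cyclic loess. Its paralogue Sec11c fell by 0.77, a call lost without control 2, control 3 or tamoxifen 2.

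In the ER lumen 22 of 45 folding and unfolded protein response genes fell (48.9%) and none rose, with a median of -0.68, and leaving out any 1 array left 17 to 22 of them called. Hyou1, a glucose-regulated chaperone, read 7.03, 7.16, 6.97 and 7.09 against 8.71, 8.85 and 8.24 (-1.53, SE 0.16, adjusted p = 7.22e-06). Derl3, which takes part in the export of misfolded proteins, read 6.30, 5.63, 5.34 and 5.67 against 9.44, 8.77 and 7.76 (-2.92, SE 0.37, adjusted p = 5.3e-05). Ero1b, an oxidase that recharges protein disulphide isomerases, read 7.47, 6.90, 7.38 and 6.70 against 9.71, 9.81 and 9.12 (-2.43, SE 0.32). For both genes the highest tamoxifen sort lay more than 1 unit under the lowest control. The disulphide isomerases P4hb (-1.32, SE 0.18), Pdia6 (-1.25, SE 0.17) and Txndc11 (-1.29, SE 0.17) and the Bip co-chaperone Dnajc3 (-0.88, SE 0.13) fell too. Hspa5, the gene of Bip itself, read 8.0, 8.31, 8.40 and 8.36 against 8.69, 8.69 and 8.91 and did not pass the test (-0.49, SE 0.20, adjusted p = 0.146).

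Promoter windows were searched for the ER stress element, to which ATF6 binds with NF-Y. The search used both strands and the letters CCAAT, any 9 bases and CCACG, in the RefSeq windows of the GRCm38.p6 build from 250 bases before to 50 bases after each gene's start. Of the 16990 genes with such a window 29 held the element (0.171%), and 11 of the 29 fell while none rose. In the ER folding list 9 of 38 genes with a window held it (23.7%), and in the ER translocation list 1 of 36 did (2.78%). In the folding list all 9 but Hspa5 fell. The following 70-base stretches, each read 5′ to 3′ on the gene's strand with the element in capitals, show 5 of the genes that fell and Hspa5, and in Derl3 and Ero1b the element lies on the opposite strand. They are Derl3 at chr10:75893216-75893285, Ero1b at chr13:12565656-12565725, Pdia6 at chr12:17266465-17266534, Dnajc3 at chr14:118937801-118937870, Syvn1 at chr19:6046506-6046575 and Hspa5 at chr2:34771999-34772068, all on the plus strand.
Derl3: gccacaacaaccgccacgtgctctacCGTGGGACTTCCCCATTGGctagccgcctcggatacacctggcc
Ero1b: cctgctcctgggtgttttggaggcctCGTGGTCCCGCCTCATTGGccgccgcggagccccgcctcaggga
Pdia6: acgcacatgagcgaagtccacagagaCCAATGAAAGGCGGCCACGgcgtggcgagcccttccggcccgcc
Dnajc3: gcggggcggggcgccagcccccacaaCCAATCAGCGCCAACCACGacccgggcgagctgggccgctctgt
Syvn1: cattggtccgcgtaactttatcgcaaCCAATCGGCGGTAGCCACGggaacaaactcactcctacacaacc
Hspa5: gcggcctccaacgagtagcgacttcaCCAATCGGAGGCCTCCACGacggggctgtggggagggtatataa
Syvn1, an ER ubiquitin ligase, fell by 0.82 (SE 0.19, adjusted p = 0.00824), a call lost without control 1. A match describes these letters and does not show that a factor binds there.

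Beyond the ER, 16 of 57 genes of ER to Golgi transport fell (28.1%) and none rose, with a median of -0.34. Leaving out any 1 array left 12 to 14 of them called. Tmed3, a cargo adaptor of transport vesicles, read 7.56, 7.69, 7.82 and 7.35 against 8.99, 9.44 and 9.07 (-1.56, SE 0.18, adjusted p = 2.21e-05). The lectin Lman1 fell by 1.15 (SE 0.19), the exit-site scaffold Sec16a by 1.00 (SE 0.18), the coat subunits Copa and Arcn1 by 0.69 each (SE 0.13 and 0.14) and the Golgi stacking protein gene Gorasp1 by 0.82 (SE 0.16). Among genes of granules and regulated exocytosis 7 of 35 fell and 3 rose, with a median of -0.31, and the 7 became 4 without control 2 and 11 under cyclic loess. The falls held Nucb2, the precursor of nesfatin, at 10.18, 9.64, 9.86 and 9.49 against 11.44, 11.43 and 10.88 (-1.46, SE 0.26), and Tmem97 (-1.28, SE 0.27). Sytl2, which tethers Rab27-bearing vesicles, rose by 2.22 (SE 0.37, at least 4.64-fold).

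Few genes of digestive products passed the test. Of the 20 measured genes of the zymogen list 1 fell and none rose, with a median of -0.51. The list was lower all the same: the mean of its 16 genes above the background guide was 9.417 to 9.655 in the tamoxifen sorts against 10.105 to 10.392. Under cyclic loess 3 fell, and 2 without tamoxifen 4. The gene that fell was Rnase1, the secreted pancreatic-type ribonuclease, at 5.26, 4.63, 4.35 and 3.63 against 7.38, 6.20 and 6.06 (-2.08, SE 0.31, adjusted p = 0.000269). In the pancreatic acinar list 2 of 14 fell, with a median of -0.45. Cel, which encodes bile salt-dependent lipase, read 4.29, 4.25, 4.66 and 4.22 against 7.54, 8.09 and 7.82 (-3.46, SE 0.37, adjusted p = 8.01e-06), close to the background guide in every tamoxifen sort. Ptf1a, the acinar lineage factor, read 2.97, 3.69, 2.71 and 3.14 against 4.64, 4.46 and 4.79 (-1.503, SE 0.24, at least 1.39-fold). Sycn, a zymogen granule protein gene, fell by 1.76 (SE 0.18, at least 2.51-fold).

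**Figure D3:**
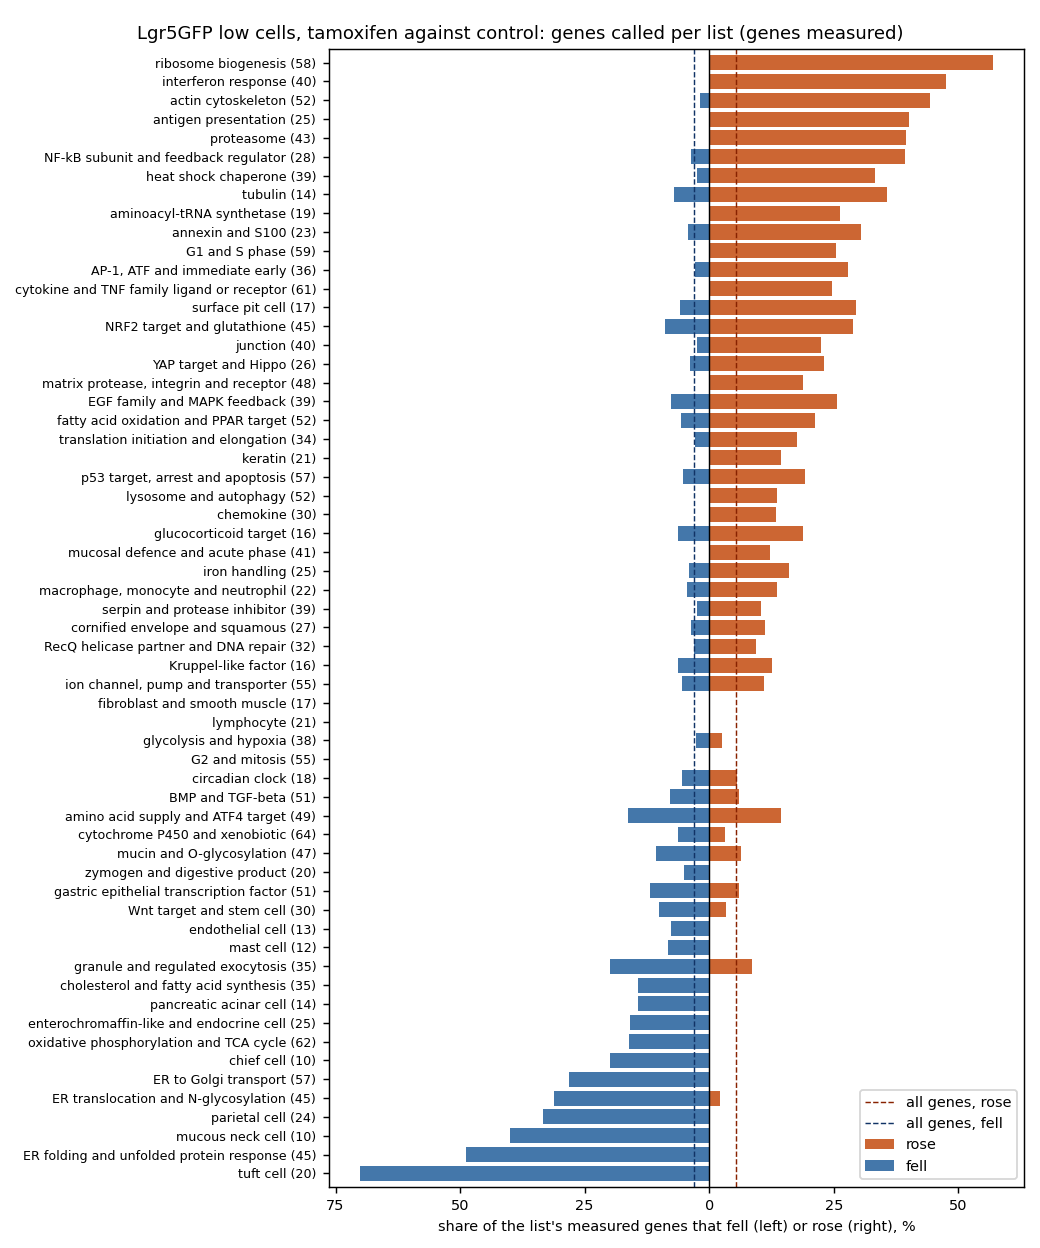
Share of each list's measured genes (x axis, percent) that fell, to the left in blue, or rose, to the right in orange, with the number of genes measured after each name and dashed lines for the share of all genes, 2.98% fallen and 5.35% risen. The tuft cell list (70% fallen) and ER folding list (48.9% fallen) lie at one end and ribosome biogenesis (56.9% risen) at the other. The dashed lines include dim genes, since 12883 of 22180 genes had a mean over 21 arrays above the background guide. Only 31 genes that rose and 18 that fell lay under it in both low groups, so the shares among brighter genes are higher than the lines.

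Markers of parietal cells, the acid-secreting cells, were lower with tamoxifen. Of 24 genes 8 fell (33.3%) and none rose, with a median of -0.71. Kcnj16, a potassium channel, read 5.82, 5.25, 4.84 and 4.66 against 7.88, 6.88 and 6.70 (-2.01, SE 0.31). Ckb, a creatine kinase, fell by 1.95 (SE 0.29), the water channel Aqp4 by 1.64 (SE 0.26), the anion exchanger Slc4a2 by 1.44 (SE 0.24) and the nuclear receptor Esrrg by 1.34 (SE 0.26). The proton pump subunits missed the threshold. Atp4a read 11.36, 11.14, 10.48 and 10.28 against 12.44, 12.26 and 12.11 (-1.45, SE 0.45, adjusted p = 0.0504), and Atp4b read 10.996, 10.75, 10.39 and 9.81 against 12.61, 12.39 and 12.30 (-1.94, SE 0.65, adjusted p = 0.0731). Every tamoxifen sort lay below every control for both subunits. The summed list ran from 13.05 to 13.56 in the tamoxifen sorts and from 14.18 to 14.43 in the controls, on the log2 scale.

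Mucous neck cells, which lie above chief cells and can give rise to them, had 4 of 10 markers lower and none higher, with a median of -1.11. Agr2, an ER protein needed for mucin folding, read 8.88, 9.20, 9.92 and 10.16 against 10.86, 11.60 and 11.99 (-1.94, SE 0.41). A4gnt, which caps the glycans of the gland mucin, read 5.11, 6.95, 7.24 and 6.91 against 9.15, 9.28 and 9.80 (-2.86, SE 0.61). Muc6, the gland mucin itself, read 7.87, 8.97, 9.02 and 9.86 against 10.29, 11.16 and 11.46 and missed the threshold (-2.04, SE 0.64, adjusted p = 0.0514). Tff2 and Gkn3, also neck cell products, differed by -0.71 (SE 0.33) and -1.41 (SE 0.57) and were not called, with tamoxifen 4 at 12.58 and 11.57, within the control ranges. Control 3 was the highest control and tamoxifen 4 the highest tamoxifen sort in the mean of this list, 9.69 and 8.57, and both also had the highest Gast.

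Surface pit cells, which line the lumen and make the surface mucin, had 5 of 17 markers higher and 1 lower, with a median of 0.55. Anxa10 rose by 1.61 (SE 0.28), Mucl3 by 2.15 (SE 0.46), the gastric tight junction gene Cldn18 by 0.91 (SE 0.13) and Muc1 by 0.55 (SE 0.11). The gene that fell, Gcnt1, was not called without control 1, control 3 or tamoxifen 1. The surface mucin Muc5ac read 8.40, 8.47, 6.84 and 8.04 against 5.48, 7.07 and 6.51 and was not called (1.58, SE 0.55, adjusted p = 0.0864). In the wider mucin and O-glycosylation list 3 of 47 rose (6.38%, near the 5.35% of all genes) and 5 fell (10.6%), with a median of -0.19. Among them B3gnt3, a glycan-extending enzyme, rose by 0.86 (SE 0.20) and Galnt4, which starts O-glycans, fell by 0.65 (SE 0.14). Without tamoxifen 4 the 5 falls became 8.

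Endocrine markers were uneven among the controls. Of 25 genes 4 fell and none rose, with a median of -0.73, and the 4 became 2 without control 3 or tamoxifen 1 and 7 without tamoxifen 4. Hdc, which makes histamine in enterochromaffin-like cells, read 5.31, 5.32, 4.70 and 5.69 against 7.62, 8.40 and 8.10 (-2.79, SE 0.42, adjusted p = 0.000253). Slc18a2, the vesicular monoamine transporter of these cells, read 5.59, 5.58, 5.14 and 5.73 against 6.61, 8.91 and 8.35 (-2.44, SE 0.40). Chga, which encodes chromogranin A, read 9.38, 8.71, 7.17 and 9.28 against 10.45, 11.07 and 10.69 and was not called (-2.10, SE 0.72, adjusted p = 0.0807). The summed list spanned 10.70 to 13.37 in the tamoxifen sorts and 12.45 to 13.93 in the controls. These ranges overlap through tamoxifen 4, whose list mean of 6.62 was the highest of its group. Gast is on this list and was also far highest in tamoxifen 4 among the tamoxifen sorts, and its part in the sum was not tested.

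Markers of cells outside the epithelium were mostly dim. In the macrophage, monocyte and neutrophil list 3 of 22 rose and 1 fell, with a median of 0.23, and its summed level ran from 9.57 to 10.05 in the tamoxifen sorts and 8.84 to 9.17 in the controls. The rises were Cd14, the lysosomal glycoprotein gene Cd68 (7.39, 6.98, 6.71 and 6.81 against 3.85, 4.20 and 4.50, a difference of 2.79, SE 0.24) and the complement gene C1qc (0.62, SE 0.17, at least 1.02-fold). The call of C1qc was lost without control 1, control 3, tamoxifen 1 or tamoxifen 4. Lyz2, a myeloid lysozyme gene, read 5.41, 5.17, 5.09 and 4.48 against 3.34, 3.34 and 2.79 (1.88, SE 0.63, adjusted p = 0.0719, at least 1.84-fold). Adgre1, a macrophage marker gene, lay between 3.55 and 4.15 on all 7 arrays, under the background guide. Ptprc, the pan-leukocyte CD45 gene, read 3.84, 3.74, 4.71 and 3.69 against 7.67, 6.11 and 6.21 (-2.67, SE 0.71, adjusted p = 0.0209, at least 5.68-fold), and its call was lost without control 1, tamoxifen 1 or tamoxifen 2. The part of other cells in the results for Cd14 and Cd68 was not tested.

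None of 21 lymphocyte genes and none of 17 fibroblast and smooth muscle genes was called, with medians of -0.10 and -0.06, though 1 fibroblast and smooth muscle gene fell without tamoxifen 2. Of 13 endothelial genes only Tek fell (-1.46, SE 0.45, at least 1.74-fold), and it lost its call without any array but control 2 and under cyclic loess. Of 12 mast cell genes only Kit fell (-1.50, SE 0.40), without a call when control 1 or tamoxifen 3 was left out, and 1 of the 12 lay above the background guide. The single measured erythroid gene differed by 0.20 and was not called. None of 4 sex-linked genes was called, with a median of -0.16.

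Squamous genes other than Sprr1a moved little. Of 27 genes of the cornified envelope and squamous list 3 rose, Sprr1a among them, and 1 fell, with a median of 0.09. The summed level, Sprr1a included, was 11.78 to 12.16 with tamoxifen against 9.37 to 9.86, on the log2 scale. Sprr1a alone read 11.26 to 11.76 against 4.77 to 6.56. Without control 1 or control 2 the 3 rises became 1. Ppl, which encodes periplakin, rose by 0.86 (SE 0.20), a call lost without control 1 or control 2. Sprr2f rose by 1.31 (SE 0.39, at least 1.04-fold) and Sprr4 fell by 0.70 (SE 0.21, at least 1.27-fold), and both lay near the background guide and lost their calls without most single arrays, the exceptions being tamoxifen 2 for Sprr2f and tamoxifen 1 for Sprr4. Sprr4 was not called under cyclic loess.

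Of 21 keratin genes 3 rose, Krt7, Krt8 and Krt19, and none fell, with a median of 0.09. The mean of the 9 above the background guide was 7.73 to 7.83 in the tamoxifen sorts against 7.03 to 7.15. Krt7, a keratin of ducts, read 8.20, 8.13, 7.91 and 8.33 against 6.47, 6.07 and 5.87 (2.00, SE 0.23, adjusted p = 2.26e-05). Krt19 read 9.46, 9.41, 9.05 and 9.32 against 6.76, 7.27 and 8.06 (1.95, SE 0.32), and Krt8 rose by 0.88 (SE 0.14). The count stayed at 3 with any array left out. Among annexins and S100 proteins, both families of calcium-binding proteins, 7 of 23 rose and 1 fell, with a median of 0.46. S100a6 read 11.99, 11.89, 11.84 and 11.98 against 8.23, 8.37 and 9.96 (3.07, SE 0.42), Anxa2 9.95, 10.18, 9.64 and 10.13 against 7.20, 6.998 and 8.08 (2.55, SE 0.32). S100a11 rose by 1.64 (SE 0.23), Anxa7 by 1.23 (SE 0.17) and Anxa5 by 1.19 (SE 0.17). Control 3 was the highest control for S100a6, Anxa2, S100a11 and Anxa5. The gene that fell, Anxa4, was not called without control 1, control 3, tamoxifen 1, tamoxifen 2 or tamoxifen 4.

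Of 41 genes of mucosal defence and the acute phase 5 rose (12.2%) and none fell, with a median of 0.05. They were Hamp, Dmbt1, Clu, Reg3g and Pigr. The mean of the 26 genes above the background guide was 6.27 to 7.29 in the tamoxifen sorts against 5.79 to 6.10. Clu, which encodes the extracellular chaperone clusterin, read 12.31, 12.37, 12.32 and 12.21 against 11.26, 10.71 and 11.29 (1.22, SE 0.14, adjusted p = 2.21e-05). Reg3g, an antimicrobial lectin gene, read 9.05, 9.19, 9.22 and 11.16 against 7.49, 7.77 and 6.94 (2.25, SE 0.60, adjusted p = 0.0219). Its adjusted p was 0.0689 without control 1, 0.0861 without control 3 and 0.0725 without tamoxifen 4. Pigr, which carries immunoglobulins across the epithelium, rose by 1.41 (SE 0.39), a call lost without control 1, control 2, tamoxifen 1, tamoxifen 2 or tamoxifen 4. The 5 rises became 3 without control 1 or tamoxifen 4, and 1 gene fell without tamoxifen 4.

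Of 25 iron handling genes 4 rose (16%) and 1 fell (4%), with a median of 0.05. Over all genes, dim ones included, 5.35% rose and 2.98% fell, while 22 of these 25 lay above the background guide. Hepcidin, the product of Hamp, blocks iron export through ferroportin. Hmox1, which frees iron from haem, read 8.30, 7.77, 6.80 and 6.95 against 4.12, 4.42 and 4.87 (2.98, SE 0.52, adjusted p = 0.000974). Cp, the copper ferroxidase ceruloplasmin, rose by 2.15 (SE 0.51, at least 3.03-fold). Tfrc, the transferrin receptor, read 6.40, 6.75, 6.84 and 6.48 against 8.76, 8.88 and 8.13 (-1.97, SE 0.30, adjusted p = 0.000254). The metallothionein gene Mt1 rose by 1.55 (SE 0.38), a call lost without control 1 or control 2. Cybrd1, a ferric reductase that is not on the list and was picked after its values were seen, read 7.61, 8.44, 7.46 and 7.98 against 5.21, 5.34 and 5.69 (2.46, SE 0.37).

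Genes of inflammatory signalling were higher. The NF-kB pathway is switched on by degradation of its inhibitor, and its targets include its own subunits and inhibitors. Of 28 measured subunits and feedback regulators 11 rose (39.3%) and 1 fell, with a median of 0.60, and leaving out any 1 array left 8 to 10 rises. Relb, a subunit of the non-canonical arm, read 6.80, 6.05, 6.44 and 6.06 against 4.60, 5.09 and 4.99 (1.44, SE 0.18, adjusted p = 4.53e-05). Its partner Nfkb2 rose by 1.62 (SE 0.29), Birc3 by 1.35 (SE 0.24), Bcl3 by 1.62 (SE 0.31), Tnip1 by 1.22 (SE 0.25) and Tnfaip3, the A20 gene, by 1.24 (SE 0.26). The gene that fell was Tank (-0.63, SE 0.18), which lost its call with any array left out. Nfkbia, the gene of the inhibitor itself, read 8.79, 8.44, 7.97 and 7.91 against 7.58, 6.78 and 6.98 (1.17, SE 0.30, adjusted p = 0.0194), with its call lost without control 2, control 3, tamoxifen 1 or tamoxifen 2.

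Of 30 chemokine genes 4 rose and none fell, with a median of 0.01, the same as over all genes. Only 17 of the 30 lay above the background guide. The mean of these 17 was 5.36 to 5.61 in the tamoxifen sorts against 4.88 to 4.97 in the controls, with no overlap. Cxcl16, expressed on epithelial and dendritic cells, read 9.44, 9.01, 8.89 and 8.82 against 5.80, 5.69 and 5.21. Cxcl1, a neutrophil attractant, read 5.61, 5.30, 4.96 and 5.14 against 4.29, 3.92 and 3.29 (1.42, SE 0.21, at least 2.13-fold). Cx3cl1 rose by 0.86 (SE 0.21), without a call when control 1 or control 2 was left out. Ccl5 rose by 1.95 (SE 0.58) but its tamoxifen values of 7.36, 6.64, 8.82 and 5.01 overlap the controls at 4.93 to 5.04, and its call was lost under cyclic loess and without any array but tamoxifen 4. The 4 became 2 without control 1 or control 2, and 1 gene fell without control 2.

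NF-kB sites were searched in the same promoter windows as GGGNNTTTCC on either strand, and 317 of 16990 genes held one (1.87%), against 35 of 944 genes that rose (3.71%) and 11 of 504 that fell (2.18%). In the NF-kB list 8 of 23 genes with a window held it (34.8%), and in the chemokine list 5 of 20 (25%). The stretches of 3 genes that rose are shown with the matches in capitals: Cxcl1 at chr5:90891135-90891204 on the plus strand, Nfkbia at chr12:55492648-55492717 and Tnfaip3 at chr10:19015411-19015480, both on the minus strand.
Cxcl1: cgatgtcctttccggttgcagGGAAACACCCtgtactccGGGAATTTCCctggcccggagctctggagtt
Nfkbia: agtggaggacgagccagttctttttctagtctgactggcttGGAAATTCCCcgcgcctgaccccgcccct
Tnfaip3: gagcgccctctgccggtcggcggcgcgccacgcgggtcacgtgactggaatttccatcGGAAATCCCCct
Cxcl1 holds 2 matches, 1 on each strand. The chemokine genes Cxcl2 and Ccl20 also hold one, and neither was called (0.52, SE 0.28, and 0.28, SE 0.23).

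Among cytokines, TNF family ligands and their receptors 15 of 61 rose (24.6%) and none fell, with a median of 0.34. The 15 became 7 without control 1 or tamoxifen 2 and 9 without control 2 or tamoxifen 1. Most of those named are receptors. Osmr, the oncostatin M receptor, read 7.39, 7.65, 6.36 and 6.98 against 4.30, 4.51 and 4.15 (2.77, SE 0.42, adjusted p = 0.000295), and Tnfrsf12a, the TWEAK receptor, read 7.88, 7.40, 7.40 and 7.67 against 4.59, 4.90 and 5.21 (2.69, SE 0.36). The interferon gamma receptor chain Ifngr2 rose by 1.22 (SE 0.17), the TRAIL receptor Tnfrsf10b by 1.39 (SE 0.28) and the TNF receptor Tnfrsf1a by 0.84 (SE 0.19). The ligand Lif, a cytokine of the interleukin 6 family, rose by 1.31 (SE 0.26).

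Interferon response genes rose unevenly among the tamoxifen sorts. Of 40 genes 19 rose (47.5%) and none fell, with a median of 1.39. The list mean was 6.90, 6.87, 7.45 and 5.87 in the tamoxifen sorts and 5.37, 5.47 and 5.06 in the controls, so tamoxifen 4 lay nearest the controls. Without tamoxifen 4 there were 26 rises, and there were 10 without control 1 or control 3 and 11 without tamoxifen 1, 2 or 3. Zbp1, a sensor of Z-form nucleic acid, read 8.48, 8.39, 8.20 and 6.59 against 4.25, 5.31 and 4.73 (3.15, SE 0.54, adjusted p = 0.000801). Rsad2, which encodes viperin, read 6.85, 6.50, 7.76 and 6.14 against 3.71, 4.35 and 4.30 (2.69, SE 0.48, at least 6.30-fold), and Parp14 7.94, 8.11, 8.30 and 6.78 against 5.48, 5.34 and 5.21 (2.44, SE 0.41). Parp9 rose by 1.70 (SE 0.24), Xaf1 by 2.77 (SE 0.58), Oasl1 by 1.67 (SE 0.35) and Gbp3 by 1.75 (SE 0.39, at least 1.99-fold). Ifit1 read 7.51, 7.32, 8.60 and 5.54 against 4.34, 5.00 and 4.53 (2.62, SE 0.67, adjusted p = 0.0171) and lost its call without control 1, control 3, tamoxifen 1 or tamoxifen 3.

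The interferon-stimulated response element, searched as GAAANNGAAA on either strand, was in 657 of 16990 windows (3.87%), in 47 of 944 of genes that rose (4.98%) and in 17 of 504 of genes that fell (3.37%). In the interferon list 17 of 30 genes with a window held it (56.7%). Stretches of 3 genes that rose are shown for the matches, in capitals, which here read on the opposite strand: Rsad2 at chr12:26456533-26456602 on the minus strand, and Ifit1 at chr19:34640764-34640833 and Gbp3 at chr3:142559972-142560041 on the plus strand.
Rsad2: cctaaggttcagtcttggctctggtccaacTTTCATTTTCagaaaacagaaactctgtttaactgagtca
Ifit1: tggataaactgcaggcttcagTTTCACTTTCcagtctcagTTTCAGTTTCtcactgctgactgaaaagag
Gbp3: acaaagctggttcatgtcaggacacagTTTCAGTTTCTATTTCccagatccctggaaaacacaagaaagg
Ifit1 and Gbp3 each hold 2 matches, which overlap in Gbp3.

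Antigen presentation genes, many of them induced by interferon, rose for 10 of 25 (40%), and none fell, with a median of 0.68 and 8 to 12 rises with an array left out. Several build the immunoproteasome, which cuts peptides for display. Psmb10 read 9.42, 9.18, 9.08 and 8.38 against 6.58, 6.76 and 7.53 (2.06, SE 0.26, adjusted p = 4.53e-05), and Psmb8 7.76, 7.95, 7.68 and 6.97 against 6.19, 5.74 and 5.40 (1.81, SE 0.26). The activator Psme1 rose by 1.04 (SE 0.16), the peptide transporter Tap2 by 1.41 (SE 0.24), the trimming peptidase Erap1 by 1.27 (SE 0.21) and Tapbpl by 1.23 (SE 0.20). Tamoxifen 4 was the lowest tamoxifen array for Psmb10, Psmb8, Psme1 and Erap1, as for the interferon list.

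**Figure D4:**
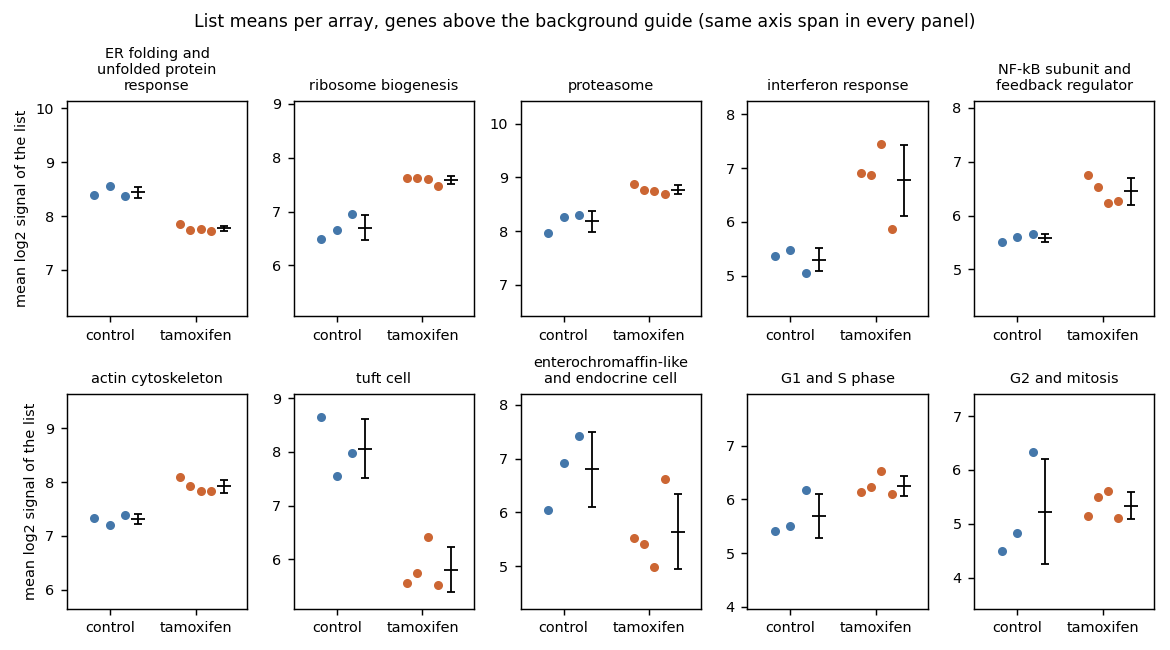
Mean log2 signal (y axis, the same span in every panel) of 10 gene lists in each Lgr5GFP low array, over genes above the background guide, with controls in blue, tamoxifen sorts in orange and black bars for the mean and SD. The ER folding list lies at 7.73 to 7.85 with tamoxifen against 8.38 to 8.56, tamoxifen 4 is lowest in the interferon list (5.87), and control 3 is highest in the G2 and mitosis list (6.34).

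Of 36 genes of the AP-1, ATF and immediate early list, not all of them transcription factors, 10 rose (27.8%) and 1 fell, with a median of 0.36. The 10 became 6 without control 1 and 5 without control 2 or tamoxifen 1, and the 1 fall, Nr4a2, was called only without tamoxifen 3 among the left-out arrays. Ier3 read 8.37, 8.13, 7.65 and 7.97 against 5.41, 5.46 and 5.71 (2.50, SE 0.39, adjusted p = 0.00038). Socs3, a feedback inhibitor of STAT3 signalling, read 7.70, 7.90, 6.53 and 7.53 against 5.54, 5.42 and 5.13 (2.05, SE 0.36). Egr1 rose by 1.49 (SE 0.32) and the small Maf gene Mafg by 1.01 (SE 0.15). Atf3, a stress-induced repressor, read 8.41, 8.01, 7.75 and 7.50 against 6.62, 6.72 and 6.15 (1.43, SE 0.36, adjusted p = 0.0157), with an adjusted p of 0.0724 without control 3 and 0.0605 without tamoxifen 1. Among 16 Kruppel-like factors Klf6 rose by 1.63 (SE 0.34) and Klf10 by 1.00 (SE 0.27), and Klf12 fell by 1.14 (SE 0.27), with a list median of 0.02. Klf12 lost its call without control 2, and Klf10 without control 1, control 2, tamoxifen 1, tamoxifen 2 or tamoxifen 4.

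In the EGF family and MAPK feedback list 10 of 39 rose and 3 fell, with a median of 0.40, and the 10 became 4 without control 1, 5 without control 2 and 6 without tamoxifen 1 or 2. The 3 falls became 1 without control 1, control 2 or tamoxifen 1. Rhbdf1, a regulator of ligand shedding, rose by 1.04 (SE 0.19) and the ephrin receptor Epha2 by 1.25 (SE 0.26). Egfr, the receptor itself, read 7.03, 7.16, 6.51 and 6.82 against 4.53, 5.43 and 5.57 (1.71, SE 0.40, adjusted p = 0.00977), or 0.0804 without control 1. Dusp6, a phosphatase that turns off ERK and is itself an ERK target, fell by 0.96 (SE 0.20).

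In the YAP and Hippo list 6 of 26 rose and 1 fell, with a median of 0.28, and 3 rose without control 1. The fall, Lats1, was not called without control 1, tamoxifen 3 or tamoxifen 4, and under cyclic loess 2 fell. The effector Wwtr1, the TAZ gene, read 7.59, 6.47, 6.44 and 6.43 against 5.08, 5.22 and 5.13 (1.59, SE 0.31), and its partner Tead2 rose by 1.30 (SE 0.24). The target Ccn1 rose by 1.76 (SE 0.41), with an adjusted p of 0.0608 without control 1. In the BMP and TGF-beta list 3 of 51 rose (5.88%, near the 5.35% of all genes) and 4 fell (7.84%), with a median of -0.10. Without control 1 the counts were 1 and 1, with 2 falls without control 2. Sostdc1, a secreted BMP and Wnt antagonist, read 5.28, 5.70, 5.72 and 4.98 against 8.96, 9.50 and 8.84 (-3.68, SE 0.41, adjusted p = 1.34e-05). Tgfb1 rose by 1.69 (SE 0.30).

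Of 30 Wnt target and stem cell genes 1 rose and 3 fell, with a median of -0.36. Myc read 7.68, 7.79, 8.02 and 7.68 against 6.33, 5.93 and 6.37 (1.58, SE 0.30, adjusted p = 0.00206). Smoc2, a matrix protein gene enriched in Lgr5-expressing stem cells, read 4.10, 4.46, 5.46 and 4.96 against 6.19, 6.12 and 6.08 (-1.39, SE 0.32). Znrf3, which removes Wnt receptors, fell by 0.92 (SE 0.24), a call lost without control 1 or control 2, and Lgr5 is the third. Sox9 differed by -0.28 (SE 0.28), Cd44 by 1.08 (SE 0.66) and Ccnd1 by 0.05 (SE 0.45), and none of these was called. Among 51 transcription factors of the gastric epithelium 6 fell (11.8%) and 3 rose (5.88%, near the 5.35% of all genes), with a median of -0.26. There were 0 rises without control 1, control 2 or tamoxifen 1 and 1 without tamoxifen 2 or tamoxifen 4. Cited2, a co-activator gene outside the lists and picked after its values were seen, read 7.49, 7.11, 7.35 and 6.54 against 9.07, 9.86 and 9.46 (-2.34, SE 0.31). The oestrogen receptors, which tamoxifen binds, were dim: Esr1 lay between 3.76 and 4.34 and Esr2 between 4.49 and 4.85 on the 7 arrays, and neither was called.

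Actin cytoskeleton genes rose for 23 of 52 (44.2%) and fell for 1, with a median of 0.62, and leaving out any 1 array left 17 to 22 rises. Flna, which cross-links actin filaments, read 7.77, 7.96, 7.49 and 7.31 against 3.89, 4.66 and 4.28 (3.36, SE 0.27, adjusted p = 3.15e-07). Actn1 read 9.70, 9.92, 9.33 and 9.63 against 7.59, 8.10 and 8.59 (1.55, SE 0.27). The myosin light chain gene Myl12a rose by 1.18 (SE 0.15), the filament-severing Cfl1 by 0.98 (SE 0.16), the capping protein gene Capg by 1.42 (SE 0.21) and the monomer-binding Tmsb4x by 1.19 (SE 0.21). The gene that fell was Vil1, the villin of microvilli, whose arrays overlapped between groups and whose call was lost without control 1, control 3 or tamoxifen 1, while 3 fell under cyclic loess. Among 14 tubulin genes 5 rose and 1 fell, with a median of 0.31. Tubb5 rose by 1.29 (SE 0.21). The 5 rises became 1 without control 2, 3 without control 1 or tamoxifen 1 and 2 without tamoxifen 4, and the fall, Tuba1a, was called only without tamoxifen 1 among the left-out arrays.

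Junction genes rose for 9 of 40 and fell for 1, with a median of 0.46. Cldn4, a claudin of leak-tight epithelia, read 9.06, 8.18, 6.40 and 7.89 against 4.12, 4.77 and 4.78 (3.33, SE 0.48, adjusted p = 0.000193). The scaffolds Tjp1 and Tjp3 rose by 1.14 (SE 0.22) and 1.04 (SE 0.20), Nectin2 by 1.40 (SE 0.23) and the desmosomal Pkp2 by 0.82 (SE 0.17). Matrix proteases, integrins and related receptors rose for 9 of 48 and none fell, with a median of 0.29 and 9 to 12 rises with an array left out. Mmp7, the epithelial matrilysin, read 6.58, 6.20, 5.18 and 6.59 against 3.57, 3.61 and 3.56 (2.56, SE 0.30, at least 3.95-fold). Plaur, the urokinase receptor, read 7.89, 7.67, 6.70 and 7.79 against 4.51, 5.34 and 4.82 (2.62, SE 0.42). The laminin chain Lama5 rose by 1.58 (SE 0.22), and the integrins Itgb4 and Itgb6 by 1.22 (SE 0.21) and 1.24 (SE 0.23). Tamoxifen 3 was the lowest tamoxifen sort for Cldn4, Mmp7 and Plaur.

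Heat shock chaperones rose for 13 of 39 (33.3%) and fell for 1, with a median of 0.41, and 6 rose without control 1. The fall, Dnajb4, was not called with any array left out or under cyclic loess. Hspa1b, an inducible Hsp70 gene, read 9.62, 9.21, 9.88 and 9.07 against 5.29, 4.84 and 5.83 (4.13, SE 0.44, adjusted p = 7.93e-06). Its near-identical neighbour Hspa1a read 8.07, 8.06, 8.71 and 7.03 against 5.85, 3.43 and 4.34 (3.43, SE 0.56), and probes may not tell the copies apart. Subunits of the CCT chaperonin, which folds actin and tubulin, rose as well, with Cct8 by 1.00 (SE 0.17), Cct3 by 1.15 (SE 0.21), Cct4 by 0.92 (SE 0.18) and Cct5 by 0.71 (SE 0.16). Other inducible heat shock genes were not called, with Hsph1 at 1.07 (SE 0.38), Hspb1 at 0.61 (SE 0.37) and Bag3 at 0.40 (SE 0.25). Heat shock elements, searched as GAANNTTC on either strand, were in 1389 of 16990 windows (8.18%) and in 14 of 33 of this list (42.4%), but in 3 of 13 of its called members (23.1%). The stretch of Hspa1a, at chr17:34972222-34972291 on the minus strand, shows the match in capitals, and that of Hspa1b, at chr17:34959304-34959373, holds the same 70 bases.
Hspa1a: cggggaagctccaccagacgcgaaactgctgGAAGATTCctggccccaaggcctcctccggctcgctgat
Over all genes that rose the element was in 72 of 944 windows (7.63%), under the share in all windows.

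Proteasome genes rose for 17 of 43 (39.5%) and none fell, with a median of 0.61. This count was 8 without control 1, 10 without tamoxifen 1, 11 without tamoxifen 2 and 9 under cyclic loess. The lid and base subunits led, with Psmd7 at 10.12, 9.96, 9.69 and 9.91 against 8.27, 8.65 and 8.78 (1.36, SE 0.17), Psmd8 up by 1.33 (SE 0.18), Psmc1 by 0.77 (SE 0.12) and Psmd1 by 0.84 (SE 0.14). In lysosome and autophagy 7 of 52 rose and none fell, with a median of 0.20, while 5 fell under cyclic loess and 1 without tamoxifen 2. Atp6v0d2, a proton pump subunit, read 6.48, 6.78, 5.58 and 7.49 against 3.09, 2.81 and 3.73 (3.37, SE 0.55, at least 5.36-fold). The autophagy receptor Sqstm1 rose by 1.46 (SE 0.29), and the cathepsins Ctsh, Ctsl and Ctsz by 1.70 (SE 0.30), 1.21 (SE 0.24) and 1.17 (SE 0.25).

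Ribosome biogenesis held the largest share of rises of any list of 10 or more genes, 33 of 58 (56.9%), with none fallen and a median of 0.92. With 1 array left out 22 to 33 rose. Nop58, a core protein of box C/D snoRNPs, read 8.96, 8.88, 9.31 and 9.08 against 6.60, 7.35 and 8.11 (1.71, SE 0.29, adjusted p = 0.000704). Noc2l read 8.11, 8.36, 7.78 and 7.93 against 5.68, 6.63 and 6.62 (1.73, SE 0.29). The helicases Ddx10 and Ddx21 rose by 1.21 (SE 0.21) and 1.32 (SE 0.25), and Wdr43 by 1.502 (SE 0.27). In this list the mean was 7.63, 7.62, 7.61 and 7.48 against 6.49, 6.65 and 6.95. Myc, a known driver of these genes, is itself among the list's members that rose, and its part in the other rises was not tested.

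In the rest of protein synthesis fewer genes rose. Of 34 translation factors 6 rose and 1 fell, with a median of 0.19, and 3 rose without control 1. Eif6, which keeps the ribosomal subunits apart, rose by 1.44 (SE 0.20) and the cap-complex inhibitor Eif4ebp1 by 1.84 (SE 0.31), while Eif4a2 fell by 1.07 (SE 0.19). Of 19 aminoacyl-tRNA synthetase genes 5 rose and none fell, with a median of 0.39, led by Rars (0.92, SE 0.20). Those 5 became 1 without control 1, 3 without control 2 or under cyclic loess and 2 without tamoxifen 1 or 2. In the amino acid supply and ATF4 list 7 of 49 rose and 8 fell, with a median of 0.00, and without control 1 the counts were 1 and 4. The other left-out arrays that moved these counts by more than 1.5-fold gave 4 rises and 5 falls without control 2, 4 rises without control 3, 2 without tamoxifen 1 and 3 without tamoxifen 2. The 8 falls were the sulphur amino acid enzymes Cbs, Cth and Cdo1, the lysine-degrading Aass, the transporter Slc7a8, asparagine synthetase Asns and the transaminases Gpt2 and Bcat2. The call was lost without control 1 for Slc7a8, without control 1 or control 2 for Asns, without any array but control 3 or tamoxifen 2 for Gpt2 and without any array for Bcat2. Cbs read 4.96, 4.63, 5.55 and 4.92 against 7.11, 8.01 and 6.62 (-2.23, SE 0.34), and the differences were -1.34 (SE 0.28) for Cth, -1.67 (SE 0.30) for Cdo1 and -2.38 (SE 0.42) for Aass. Atf5 rose by 0.68 (SE 0.16), and Atf4 (-0.21, SE 0.17), Ddit3 (0.51, SE 0.36) and Trib3 (0.54, SE 0.30) of the stress response were not called.

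Replication genes rose for 15 of 59 of the G1 and S phase list (25.4%), and none fell, with a median of 0.47. The count ranged from 2 without control 1 to 21 without control 3, with 4 without control 2, 8 without tamoxifen 2 and 9 without tamoxifen 3, and 1 gene fell without tamoxifen 4. Mcm4, a subunit of the replicative helicase, read 6.68, 6.95, 7.49 and 6.80 against 4.73, 4.72 and 6.01 (1.83, SE 0.37, adjusted p = 0.00356). None of 55 genes of G2 and mitosis was called, with a median of 0.12. Mki67 read 6.14, 6.73, 6.56 and 6.26 against 5.18, 5.79 and 8.12 (0.06, SE 0.60, adjusted p = 0.972), so that control 3 alone lay above every tamoxifen sort. Its difference was 0.94 without control 3, where every tamoxifen sort lay above the remaining controls. It was -0.53 without control 1, -0.23 without control 2 and -0.05 without tamoxifen 2.

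Blm, which encodes the Bloom syndrome RecQ helicase, read 5.20, 4.85, 5.31 and 4.62 in the tamoxifen sorts and 8.71, 9.27 and 8.24 in the controls, a fall of 3.74 (SE 0.27, adjusted p = 6.67e-08, 13.4-fold). None of the other 31 measured genes among its partners and the DNA repair genes fell. Among them 3 rose, Xrcc5 by 0.73 (SE 0.18), Nbn by 0.99 (SE 0.28) and Atr by 0.87 (SE 0.27), and the list median was 0.25. Those 3 calls became 0 without control 1, control 2 or tamoxifen 1 and 1 without tamoxifen 2 or 3 or under cyclic loess.

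In the list of p53 targets, arrest and cell death 11 of 57 rose and 3 fell, with a median of 0.30, and 8 to 11 rose with an array left out. The 3 falls became 1 without control 2, control 3, tamoxifen 2 or tamoxifen 3. Mlkl, the effector of necroptosis, read 6.91, 7.32, 6.70 and 5.74 against 4.80, 4.28 and 5.42 (1.83, SE 0.32, adjusted p = 0.000933). Casp8 rose by 1.16 (SE 0.23), the pore-forming gasdermin gene Gsdmd by 1.37 (SE 0.27) and Gadd45b, which NF-kB also induces, by 2.14 (SE 0.40). Cdkn1a, the p21 gene and a classic p53 target, read 10.64, 10.23, 9.42 and 9.94 against 9.27, 8.88 and 9.22 and was not called (0.93, SE 0.36, adjusted p = 0.125). Cdkn1c, another inhibitor of cyclin-dependent kinases, read 6.23, 5.86, 6.34 and 5.58 against 7.91, 7.88 and 7.24 (-1.67, SE 0.36).

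Oxidative stress genes went both ways. In the NRF2 and glutathione list 13 of 45 rose and 4 fell, with a median of 0.50, and 4 rose without control 1 and 8 without control 2. Beside Hmox1 and Akr1b8, Pgd of the pentose phosphate pathway rose by 1.25 (SE 0.25) and glutathione reductase Gsr by 1.06 (SE 0.23). Catalase, Cat, read 7.97, 8.44, 8.36 and 8.23 against 9.36, 9.30 and 9.29 (-1.07, SE 0.15, adjusted p = 0.000152), and Gstk1, of mitochondria and peroxisomes, fell by 1.30 (SE 0.17). The 4 falls became 2 without control 2, control 3, tamoxifen 2, tamoxifen 3 or tamoxifen 4. Nqo1, a classic NRF2 target, was not called (0.91, SE 0.42). The antioxidant element TGACNNNGC was in 2533 of 16990 windows (14.9%), 11 of 39 of this list (28.2%) and 149 of 944 genes that rose (15.8%).

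Among 64 cytochrome P450 and xenobiotic genes 2 rose and 4 fell, with a median of 0.06. Cyp3a13, of a P450 family that metabolises tamoxifen, read 8.37, 7.44, 7.57 and 7.88 against 5.21, 4.73 and 5.16 (2.78, SE 0.38, adjusted p = 0.000122). The aldehyde dehydrogenases Aldh1a1 and Aldh1a7 fell by 1.37 (SE 0.20) and 2.00 (SE 0.32). The other rise was Cyp2b10 (1.82, SE 0.52, at least 2.81-fold), whose call was lost without any array but tamoxifen 3. The 4 falls became 2 without control 1.

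Of 62 genes of oxidative phosphorylation and the citric acid cycle 10 fell (16.1%) and none rose, with a median of -0.34, and 33 had all tamoxifen arrays below the controls. Sdha, of succinate dehydrogenase, read 9.18, 9.24, 9.08 and 9.23 against 10.30, 9.98 and 9.93 (-0.89, SE 0.15), Ogdh fell by 0.98 (SE 0.16), Suclg2 by 0.78 (SE 0.14) and Ndufs1 by 0.89 (SE 0.18). In fatty acid oxidation 11 of 52 rose and 3 fell, with a median of -0.03, and under cyclic loess 9 fell. The 11 became 4 without control 1, tamoxifen 1 or tamoxifen 2 and 5 without control 2. Acadl read 10.08, 10.01, 9.72 and 10.05 against 7.68, 8.23 and 8.59 (1.80, SE 0.25), and the droplet coat gene Plin2 rose by 1.46 (SE 0.30). Acadsb fell by 1.69 (SE 0.23) and the fatty acid receptor Cd36 by 1.92 (SE 0.42).

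Of 35 cholesterol and fatty acid synthesis genes 5 fell and none rose, with a median of -0.28, and the 5 became 2 without control 3 and 3 without control 1, tamoxifen 2 or tamoxifen 3, and 2 rose without control 1. Insig1, a sterol sensor, fell by 1.41 (SE 0.20) and Hmgcs1 by 1.37 (SE 0.26). In glycolysis and hypoxia 1 of 38 rose and 1 fell, with a median of -0.06. The fall was Ldhb (-1.11, SE 0.18), 1 of 4 falls under cyclic loess. The rise, Hkdc1 (0.93, SE 0.25), was called only without tamoxifen 3 or tamoxifen 4 among the left-out arrays.

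In 16 glucocorticoid targets 3 rose and 1 fell, with a median of 0.80, and the list mean of 7.42, 7.30, 6.41 and 6.96 in the tamoxifen sorts reached the controls, 6.36 to 6.44, in sort 3. Under cyclic loess 2 fell. Without tamoxifen 3 there were 6 rises, none without control 1 and 1 without control 2, control 3, tamoxifen 1 or tamoxifen 2. Pdk4 read 9.18, 8.97, 7.09 and 8.93 against 5.38, 6.01 and 5.34 (2.97, SE 0.76, adjusted p = 0.0173), with an adjusted p of 0.0729 without control 1, 0.0553 without control 3, 0.0583 without tamoxifen 1 and 0.0526 without tamoxifen 2. Of 18 clock genes Bhlhe40 rose by 1.53 (SE 0.30) and Nr1d1 fell by 1.19 (SE 0.31), with a median of -0.19, and Nr1d1 was not called without control 2, tamoxifen 1 or tamoxifen 2, while 2 fell under cyclic loess. The times of day of the sorts are not given in the labels used here.

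Of 39 serpins and protease inhibitors 4 rose and 1 fell, with a median of 0.14, and 2 rose without control 1 or control 2. The fall, Serpina1a, was called only without control 2 or tamoxifen 2 among the left-out arrays. Serpinb9, an inhibitor of granzyme B, read 7.98, 7.49, 8.23 and 6.52 against 5.10, 5.50 and 5.05 (2.34, SE 0.30, adjusted p = 6.56e-05), and the cathepsin inhibitor Cstb rose by 1.34 (SE 0.26). Of 55 ion channels, pumps and transporters 6 rose and 3 fell, with a median of -0.05, and 3 rose without control 1 or control 2. Clic1 read 10.71, 10.55, 10.14 and 10.37 against 7.54, 8.15 and 8.90 (2.24, SE 0.24), and the calcium-gated chloride channel Ano1 7.69, 8.04, 8.16 and 7.57 against 5.83, 5.66 and 6.23 (1.96, SE 0.28). Atp2a3, a calcium pump of the ER, read 5.87, 5.36, 6.09 and 5.97 against 9.03, 7.58 and 8.32 (-2.49, SE 0.40), and the magnesium transporter Slc41a2 fell by 1.34 (SE 0.19).

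Of 483 miRNA loci on the array 15 rose (3.11%) and 8 fell (1.66%), both under the shares of all genes, 5.35% and 2.98%. Most of the loci were dim, with 118 of the 483 above the background guide, against 12489 of 18983 protein-coding genes. The lower shares are therefore no result about miRNA loci as such. A probe set at such a locus reads RNA of the region and not the mature miRNA, so these values say nothing on the level of the mature strand. Of these loci 6 kept their calls without each array, did not overlap and lay above background, and 3 of those with a RefSeq sequence are shown, picked after their values were seen, with the seed (bases 2 to 8) in capitals. Mir149 (chromosome 1) read 5.11, 6.02, 5.33 and 5.80 against 4.45, 4.11 and 4.35 (1.26, SE 0.27), Mir494 (chromosome 12) 4.14, 4.75, 4.02 and 4.40 against 2.79, 3.22 and 3.50 (1.16, SE 0.23, at least 1.12-fold), and Mir680-2 (chromosome X) 10.47, 10.85, 11 and 9.79 against 8.31, 8.31 and 7.86 (2.37, SE 0.44).
mmu-miR-149-5p: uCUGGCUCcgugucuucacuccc
mmu-miR-494-3p: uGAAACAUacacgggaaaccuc
mmu-miR-680: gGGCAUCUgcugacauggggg
The 3 seeds differ from each other.

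The change in low cells was set against that in high and negative cells by interaction terms of the same fit. The tamoxifen effect differed from that in high cells for 6 genes (0.0271% of all genes), with 1499 at an unadjusted p under 0.05. Hamp read 4.97 higher in low cells and 0.86 higher in high cells, a difference of 4.11 (SE 0.55, adjusted p = 0.00435). Sdcbp2, a syntenin family gene, rose in low cells (9.04, 9.04, 8.53 and 8.90 against 6.56, 6.25 and 6.59) by 2.41 and differed by 0.14 in high cells, and Neurl3, a ubiquitin ligase gene, by 2.30 and 0.26. Cd68 differed by 2.79 and 0.70. Cel fell by 3.46 in low cells and differed by -0.19 in high cells, and Sycn by 1.76 with 0.12. The Cel mean was already 4.66 in control high arrays, close to the background guide, against 7.81 in control low arrays. A fall of Cel like that in low cells therefore had little room to show in high cells. The part of this starting level in the difference was not tested. Without control 2 or tamoxifen 1 the count was 3, and without tamoxifen 4 it was 10. Low and high arrays of a treatment came from the same sort runs by the numbers in their titles, and with the run as a random block 13 genes differed. Of the genes called in low cells 237 rises and 111 falls were also called in high cells in the same direction, where 606 genes were called in all.

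The labels of the control negative arrays conflict, since their source names say low while titles and cell population say negative, which was followed. What the values against negative cells mean depends on that choice. Against negative cells 186 genes differed (0.839%), with 2048 at an unadjusted p under 0.05. Without control 2 the count was 82, without control 1 86, without tamoxifen 1 116, without tamoxifen 2 110 and without tamoxifen 3 111. Of the 186, 148 had a difference below 0, and 69 of these had fallen in low cells and 85 had risen in negative cells, with 16 in both sets. Among the 16 were Hdc, Cpe, Ptf1a, Gprasp2 and Vtn. The low arrays of Cpe overlapped, and its call in low cells was lost without control 1, control 3 or tamoxifen 1. Hdc fell by 2.79 in low cells and differed by 2.13 in negative cells (difference -4.91), and Vtn, which encodes vitronectin, read 5.97, 5.45, 4.49 and 5.95 against 8.44, 8.22 and 8.0 in low cells and 2.30 higher with tamoxifen in negative cells. Chief cell and ER genes belong here too, with Bhlha15 at -3.02 against -0.54, Derl3 at -2.92 against -0.50, Ero1b at -2.43 against -0.23 and Hyou1 at -1.53 against -0.10. Blm fell by 3.74 in low cells and differed by -0.45 in negative cells. Control negative arrays already had lower means, 5.755 for Blm and 5.45 for Bhlha15, against 8.74 and 8.135 in control low arrays. For Hdc these means were 7.57 and 8.04. The part of the starting levels in the differences was not tested. Hamp, which separated low from high cells, differed by 7.89 in negative cells, more than in low cells (difference -2.93, adjusted p = 0.0127). Of the 38 differences above 0, 27 genes had risen in low cells, among them Anxa3 (4.87 against 1.61), Cyp3a13 (2.78 against 0.43), Ano1 (1.96 against 0.17) and Sytl2 (2.22 against -0.16). The Anxa3 mean was already 7.62 in control negative arrays, against 3.93 in control low arrays.

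**Figure D5:**
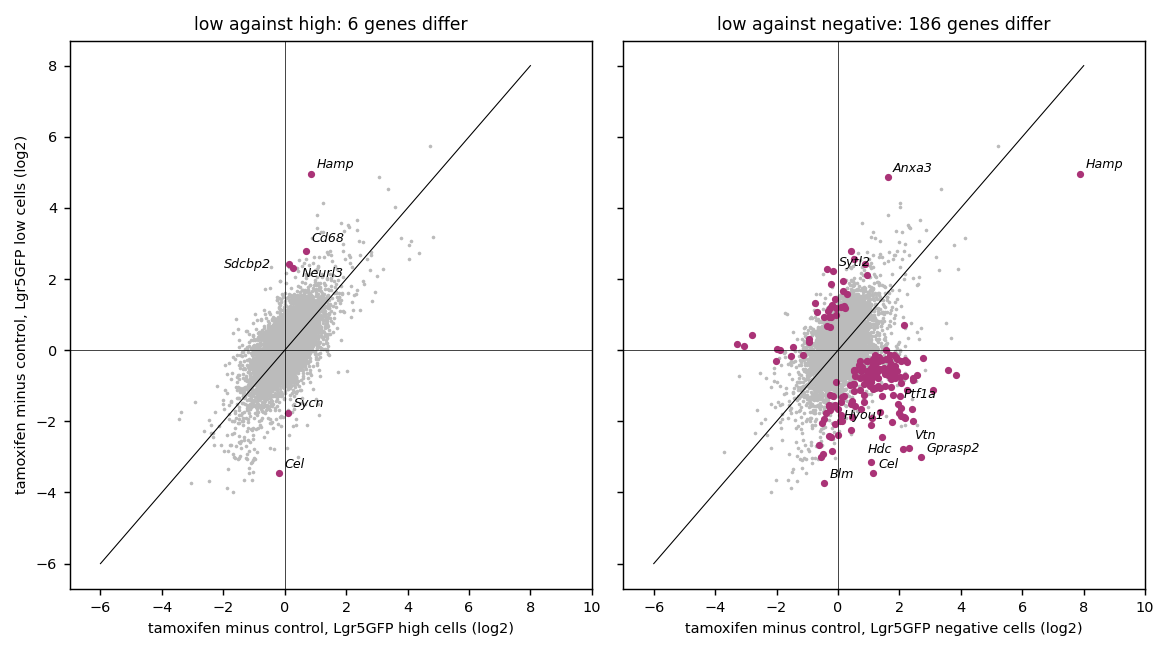
Difference between tamoxifen and control (log2) of each gene in Lgr5GFP low cells (y axis) against that in high cells (left, x axis) or negative cells (right, x axis), with genes whose interaction term was called in purple and the line of equal differences in black. The left panel holds 6 called genes and the right panel 186, with Hamp above the line on the left and Hdc, Vtn and Gprasp2 far below it on the right.

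Genes whose pattern over the 7 low arrays was most like that of Sprr1a, by Pearson correlation among genes above the background guide, were Anxa3 (r = 0.996), Ddx1 (0.994) and Fcamr (0.994). Those most like Bhlha15 were Tram1 (0.994), Hook1 (0.994) and D3Ertd751e (0.993). These correlations describe 7 arrays that fall into 2 treatment groups, and the points share treatment and sort. Likeness of pattern did not go with size, since Ddx1 differed by 0.34 (SE 0.13) and was not called, Fcamr rose by 0.92 (SE 0.23, at least 1.83-fold) and lost its call without control 1, and Hook1 fell by 0.97 (SE 0.14).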

How the data were processed

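RNA of sorted stomach corpus cells was measured on 21 arrays, of which 7 are Lgr5GFP low. The authors deposited log2 signal values per probe set, and the submitters' processing notes name RMA, oligo, limma 3.26.8 and R 3.2.3. The genome build is not given in the sources used here, and the number of arrays limits the precision. Of 41345 probe sets 23521 named exactly 1 gene in the platform table, 1814 named several and 16010 were not listed. The brightest probe set over 21 arrays stood for each of 22180 genes.

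Differences were tested with limma 3.58.1 in R 4.3.3 on 6 group means, with interaction terms between populations and Benjamini-Hochberg adjustment over all genes. The procedure was tested on simulated data. Same-numbered tamoxifen and control low arrays did not deviate together (correlations 0.055, -0.07 and -0.08), so numbers were not taken to pair arrays between treatments. Populations of a treatment share sort runs by title, which the replicate numbers of the tamoxifen negative arrays do not follow. Deviations of arrays of 1 run correlated from -0.104 to 0.411 between low and the other populations, and run was tried as a random block. Promoter and miRNA sequences are from RefSeq (GRCm38.p6), and 16990 genes had a promoter window.

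The members and gene lists were chosen with earlier results of these data known. Genes named are the 20 largest rises and 20 largest falls, up to 6 called genes per list with the smallest adjusted p, a fixed panel, the 5 largest interactions each way and the 3 genes most like Sprr1a and Bhlha15. Predicted genes, olfactory and related receptors, antigen receptor segments, small RNA loci and histones were left out of the largest changes and of the interactions. Any other gene was chosen after its values were seen. Alternatives were cyclic loess, the mean of probe sets, a trended robust prior, array weights, low arrays alone, no dim genes, a 1.5-fold test, sort run or replicate number as a block, and each array left out.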

Additional observations from a re-analysis of the deposited data

Results flagged for a closer look

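Among the 374 sets of 4 tamoxifen arrays examined, for named genes and list means, 27 held 1 array far from the other 3 by Dixon's ratio. Chance alone sets apart about 1 in 20 such sets. The far array was sort 1 for 4, sort 2 for 4, sort 3 for 11 and sort 4 for 8. Tamoxifen sort 1 was the highest by such a gap in log2 signal for Slc4a2 (6.90) and Wwtr1 (7.59). Tamoxifen sort 1 was the lowest by such a gap in log2 signal for A4gnt (5.11). Tamoxifen sort 2 was the highest by such a gap in log2 signal for Lif (6.48). Tamoxifen sort 2 was the lowest by such a gap in log2 signal for Tubb2a (6.18), Cct4 (8.50) and Dld (8.64). Tamoxifen sort 3 was the highest by such a gap in log2 signal for Cel (4.66), Lrmp (7.21) and Ptprc (4.71). Tamoxifen sort 3 was the lowest by such a gap in log2 signal for Anxa7 (8.50), Mt1 (10.83), Rhbdf1 (5.74), Bhlhe40 (7.89), Pdk4 (7.09) and Gsdmc2 (1.73). Tamoxifen sort 4 was the highest by such a gap in log2 signal for Cpe (8.70), Reg3g (11.16) and Scd1 (4.84). Tamoxifen sort 4 was the lowest by such a gap in log2 signal for Slamf9 (7.75), Zbp1 (6.59), Erap1 (7.24) and Slc7a8 (6.16). In list means the far values were the pancreatic acinar cell list in sort 1 (6.88), the chemokine list in sort 3 (5.61), the matrix protease, integrin and receptor list in sort 3 (6.42) and the ribosome biogenesis list in sort 4 (7.48).

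Interaction terms of the limma fit set apart 6 named genes between low and high cells. The effect in low cells minus that in high cells was above 0 for Hamp (4.11), Cd68 (2.09), Neurl3 (2.04) and Sdcbp2 (2.27), and below 0 for Cel (-3.27) and Sycn (-1.88).

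Against negative cells 42 named genes differed. The effect in low cells minus that in negative cells was above 0 for Anxa3 (3.26), Anxa7 (1.04), Mmp7 (2.04), Myl12a (0.96), Cct8 (1.08), Cct4 (1.15), Cyp3a13 (2.35), Sytl2 (2.38), Ano1 (1.79), Sdcbp2 (1.54), Mcpt2 (3.45), Gsdmc3 (3.22) and Gsdmc2 (3.19). It was below 0 for Hamp (-2.93), Blm (-3.29), Cel (-4.59), Hepacam2 (-4.22), Bhlha15 (-2.48), Aqp4 (-1.64), Hdc (-4.91), Slc18a2 (-3.88), Cpe (-4.43), Syp (-2.05), Ptf1a (-3.45), Aldh1a7 (-2.05), Tram1 (-0.98), Hyou1 (-1.44), Derl3 (-2.42), Ero1b (-2.21), Txndc11 (-1.14), Tmed3 (-1.26), Nucb2 (-1.56), Rab3b (-2.30), Rnase1 (-1.98), Cbs (-2.66), Cdo1 (-2.43), Slc7a8 (-3.17), Acadsb (-1.41), Sycn (-1.35), Gprasp2 (-5.71), Vtn (-5.05) and Serpina7 (-4.56). An interaction can be called without a call in low cells, as for Mcpt2 and Gsdmc2. The cause of these differences was not tested.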

How the results depend on the processing

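With 1186 rises and 660 falls as reported, a test against a 1.5-fold change called 103 and 100, and leaving out 1 low array gave 619 to 1124 rises and 371 to 591 falls. For the effect in low minus high cells, 6 genes as reported became 1 with the 1.5-fold test, 13 with sort run as a random block and 3 to 10 with an array left out. For low minus negative cells, 186 became 499 with array weights, 30 with the 1.5-fold test and 82 to 202 with an array left out. The replicate block gave 1635 rises, 886 falls, 11 genes for low minus high and 199 for low minus negative, where replicate numbers showed no pairing between treatments and do not follow sort runs in the tamoxifen negative arrays. Of the 293 named genes that were called, 281 stayed called under cyclic loess and 105 with the 1.5-fold test, and 0 reversed under any alternative run. Reversals were confined to 5 named genes that were not called. Pgc turned to 0.056 under cyclic loess and ran from -0.072 to 0.001 with an array left out. Mki67 turned to -0.11 under cyclic loess, -0.12 with array weights and -0.05 with the replicate block, and ran from -0.53 to 0.94 with an array left out. Ccnd1 turned to -0.12 under cyclic loess and ran from -0.10 to 0.30 with an array left out. Mcpt2 ran from -0.18 to 0.70 with an array left out, and Gsdmc2 turned to -0.029 with the replicate block. The causes were not tested. Dim probe sets limit folds of genes near 4.16.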
